A study of Mus musculus with 6 samples.

Results

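The surface proteins by which haematopoietic stem cells are recognised and sorted were examined in bone marrow cells that had lost Med12. MED12 belongs to the kinase module of Mediator, which relays signals from transcription factors to RNA polymerase II. The set comprised 9 mouse genes, Slamf1, Cd48, Cd34, Procr, Esam, Tek, Robo4, Ly6a and Cd27, and its members were all probe sets that the platform's annotation assigns to a single one of these symbols. This gave 10 of 45037 probe sets, which read 8 of the 9 genes: Slamf1 was read by 3 probe sets, and the other 7 genes by 1 each. Ly6a had no probe set under this rule and was not analysed here.

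One group of cells (HSPC_Med12 KO, 3 arrays) came from Med12Flox;MxCre mice, and the cells they were compared with (HSPC_control, 3 arrays) from control mice whose alleles the labels do not give, including whether they carried Cre. Mx-Cre is a recombinase switched on by interferon. All mice were of a B6/129 background, and cells of both groups were sorted 4 days after mice received pI:pC, an artificial RNA duplex that elicits interferon. The gate was lineage negative, c-Kit positive and Sca1 positive, a fraction of marrow (LSK cells) that holds stem cells and multipotent progenitors. Sca1 is the product of Ly6a, so Ly6a is a gate protein. The labels do not say that each array came from a separate animal or how many animals were pooled, so the p-values rest on variation among these arrays, which could be technical. The animals' ages are not given.

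Within the LSK gate, stem cells are CD150 positive (Slamf1) and CD48 negative, whereas most multipotent progenitors carry CD48. CD34 and CD27 mark progenitors more strongly than the most quiescent mouse stem cells. The protein C receptor EPCR (Procr), ESAM, the angiopoietin receptor TIE2 (Tek) and ROBO4 mark stem cells and are shared with endothelium, the cells that line blood vessels.

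Slamf1 and Cd48 belong to the same receptor family, and Tek and Robo4 are both shared with endothelium. Promoter sequences are shown for these gene pairs, whose differences had opposite signs. Each runs from 250 bases before to 50 bases after the start of the gene in RefSeq (GRCm38.p6): chr1:171766882-171767181, chr1:171681742-171682041, chr4:94739039-94739338 and chr9:37401722-37402021, all on the plus strand and written 5′ to 3′. Capitals mark matches on either strand. GATA factors were searched as AGATAA. ETS factors were searched as AGGAAG. RUNX factors were searched as TGTGGT, and the E-box as CAGCTG. No matches overlapped in the promoters shown. Promoters were found in the RefSeq table for 7 of the 8 measured genes. Procr and Esam, also shared with endothelium, had the sign opposite to Tek too, and no promoter is shown for them.
Slamf1: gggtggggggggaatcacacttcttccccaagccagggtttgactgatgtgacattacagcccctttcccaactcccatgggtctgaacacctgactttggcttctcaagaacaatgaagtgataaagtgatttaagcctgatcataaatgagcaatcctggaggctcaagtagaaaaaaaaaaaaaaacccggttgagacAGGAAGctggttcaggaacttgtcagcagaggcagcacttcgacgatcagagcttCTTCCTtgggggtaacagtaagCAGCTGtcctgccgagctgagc
Cd48: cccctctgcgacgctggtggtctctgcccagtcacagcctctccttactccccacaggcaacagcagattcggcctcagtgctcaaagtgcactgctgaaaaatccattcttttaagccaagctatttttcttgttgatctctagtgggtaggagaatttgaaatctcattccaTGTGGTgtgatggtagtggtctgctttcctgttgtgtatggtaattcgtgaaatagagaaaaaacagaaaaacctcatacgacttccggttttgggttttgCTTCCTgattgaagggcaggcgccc
Tek: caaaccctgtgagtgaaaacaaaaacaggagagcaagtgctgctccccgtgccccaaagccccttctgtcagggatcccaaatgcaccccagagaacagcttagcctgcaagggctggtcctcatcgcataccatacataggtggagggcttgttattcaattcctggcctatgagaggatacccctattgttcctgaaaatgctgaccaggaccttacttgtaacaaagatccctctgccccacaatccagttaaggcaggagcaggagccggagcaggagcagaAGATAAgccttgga
Robo4: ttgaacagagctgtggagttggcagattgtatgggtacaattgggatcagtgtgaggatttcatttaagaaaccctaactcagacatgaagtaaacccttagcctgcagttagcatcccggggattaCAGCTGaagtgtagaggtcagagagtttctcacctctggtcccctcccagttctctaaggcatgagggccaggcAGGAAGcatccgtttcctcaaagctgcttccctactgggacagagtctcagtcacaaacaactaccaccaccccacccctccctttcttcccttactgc

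The Slamf1 promoter held 2 matches to AGGAAG and 1 to CAGCTG, and the Cd48 promoter 1 to AGGAAG and 1 to TGTGGT. The Tek promoter held 1 match to AGATAA, and the Robo4 promoter 1 to AGGAAG and 1 to CAGCTG. Of all 32851 promoters of this length in the table, 35.4% held AGGAAG, 16.3% CAGCTG, 16.8% TGTGGT and 11.2% AGATAA. Those matches describe letters only.

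The arrays had median signals of 20.6, 21.3 and 16.5 in Med12 KO and of 26.8, 26.9 and 26.7 in control, in the linear, scaled intensity units the authors deposited. Signals under 16 made up 45.5% to 49.5% of probe sets on Med12 KO arrays, highest on Med12 KO replicate 3, and 41.6% to 42.3% on control arrays. Med12 itself had signals of 89.1, 100.4 and 86.4 on Med12 KO arrays, against 278.6, 837.4 and 441.6 on control arrays. Its log2 difference was -2.17 (SE 0.38) and its adjusted p of 0.0796 in limma missed the threshold of 0.05. Its single probe set checks the labels only if it lies within the deleted part of the gene, which is not known here. Kit, the gate's other positive marker, had signals of 514.8 to 617.5 on Med12 KO arrays and 805.2 to 1425 on control arrays on its brighter probe set (log2 difference -0.89, adjusted p 0.152). On its dimmer probe set it fell by 1.27 on the log2 scale (limma adjusted p 0.0479), a call that was lost without any 1 of the 6 arrays (adjusted p 0.0959 to 0.151) and after 7 of the other 10 alternatives. Of the 9 lineage marker genes listed for the gate, 6 were measured, and their summed signal was 49.9 to 123 in Med12 KO and 121 to 211 in control.

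The stem cell surface markers did not move in a single direction. Signals of Cd34, Cd27, Robo4 and Cd48 lay below the control range on all 3 Med12 KO arrays, and those of Tek and of 1 of the 3 Slamf1 probe sets lay above it. Procr, Esam and the other Slamf1 probe sets overlapped between groups. In limma's test on log2(signal + 16) with Benjamini-Hochberg adjustment over all 45037 probe sets, 0 of the 10 probe sets passed the threshold of 0.05, where 0.762% of all probe sets did. Without adjustment, limma gave 6 of the 10 a p under 0.05, against 15.7% of all probe sets. Of these, 2 were higher in Med12 KO, against 5.81% of all probe sets, and 4 were lower, against 9.89%. The groups did not overlap for the same number, 4 lower and 2 higher in Med12 KO, while 13.3% of all probe sets lay wholly lower and 7.61% wholly higher. Taking for each gene the probe set with the highest mean signal, the median log2 difference over the 8 genes was -0.97, against -0.05 over 18193 genes. The genes were chosen with earlier results of these data known, so these counts describe the set and test nothing about it.

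**Figure D1:**
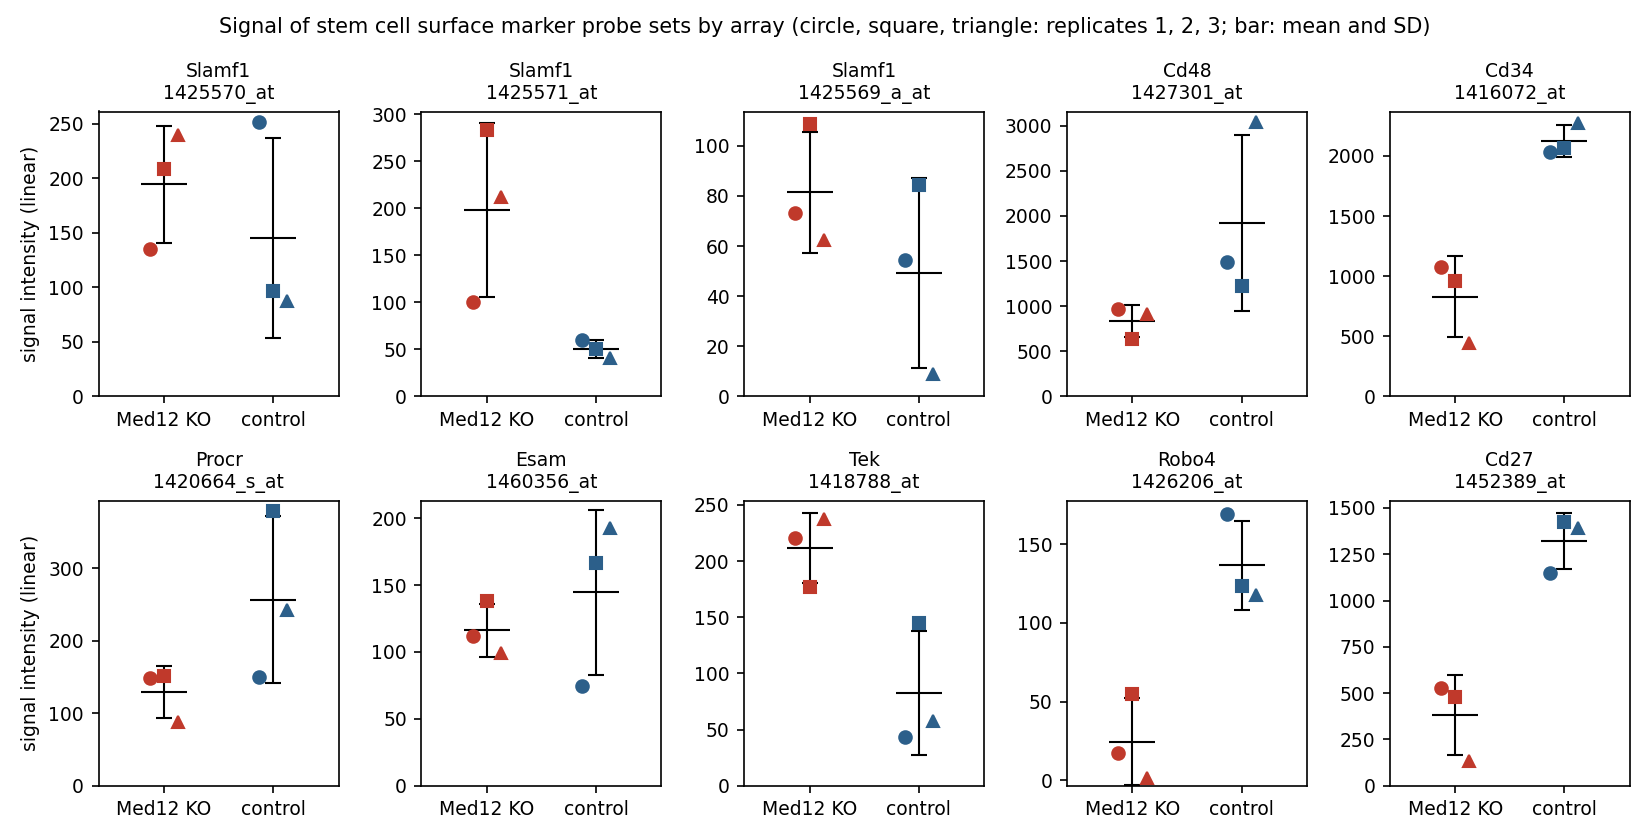
Signal intensity (linear, vertical axis, a scale for each panel) of the 10 probe sets on the 3 Med12 KO arrays (red, left) and the 3 control arrays (blue, right), with the mean and SD as black bars. Cd34, Cd27, Robo4 and Cd48 show no overlap with Med12 KO low, and Tek and Slamf1 probe set 1425571_at none with Med12 KO high.

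Slamf1 encodes CD150, the founding receptor of the SLAM family of leukocyte receptors, most of which bind the same receptor on a neighbouring cell. Its probe set 1425571_at had signals of 100.2, 282.9 and 211.4 on Med12 KO arrays, against 60.1, 50.2 and 40.3 on control arrays. All Med12 KO arrays were above all control arrays, although Med12 KO replicate 1 was much dimmer than the other two. The means were 198 ± 92.1 in Med12 KO and 50.2 ± 9.90 in control (SD, n = 3 each), and the log2 difference was 1.60 (SE 0.36), which missed the threshold in limma (adjusted p 0.124).

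The other Slamf1 probe sets did not separate the groups. The brightest, 1425570_at, gave 135.4, 208.6 and 239.9 in Med12 KO and 251.2, 96.5 and 87.7 in control. The highest of its 6 values was on control replicate 1. Its log2 difference was 0.49, with a 95% interval of -0.53 to 1.52, and was 0.93 without control replicate 1. It came to 0.31 when control replicate 2 was left out, 0.25 when control replicate 3 was, and 0.34 when Med12 KO replicate 3 was. After centring on array medians it was 0.77. Probe set 1425569_a_at gave 73.2, 108.7 and 62.6 in Med12 KO and 54.5, 84.3 and 9.0 in control, with a log2 difference of 0.77 (95% interval -0.53 to 2.07). Its value was 0.19 without control replicate 3, the only array on which it was under 16, and 1.19 without control replicate 2. The 3 probe sets therefore shared a sign and differed in size.

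Cd48 encodes a GPI-anchored SLAM family protein and is the ligand of CD244. Its signals were 967.7, 632.5 and 910.5 on Med12 KO arrays, against 1494, 1228 and 3037 on control arrays. The groups did not overlap, and control replicate 3 was over 2 times as bright as control replicates 1 and 2. The log2 difference was -1.09 (SE 0.37, limma adjusted p 0.244) and came to -0.71 without control replicate 3.

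The contrast between Slamf1 and Cd48 was examined within each array. Scaling between arrays cancels there only approximately, and least for dim signals, because a constant was added to each signal before the logarithm. The log2 signal of Slamf1 (1425570_at) minus that of Cd48 was higher in Med12 KO than in control by 1.59, with SDs of 0.60 in Med12 KO and 1.20 in control (n = 3 each). The exact two-sided permutation test gave p = 0.20, where 3 arrays against 3 cannot go below 0.10. With probe set 1425571_at in place of 1425570_at the difference was 2.69 and the groups did not overlap (exact permutation p = 0.10, the smallest possible), and with 1425569_a_at it was 1.86 (exact permutation p = 0.10). These replacements were chosen after the data were seen. The sign of a difference between genes says that their changes were unequal and nothing of either level.

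**Figure D2:**
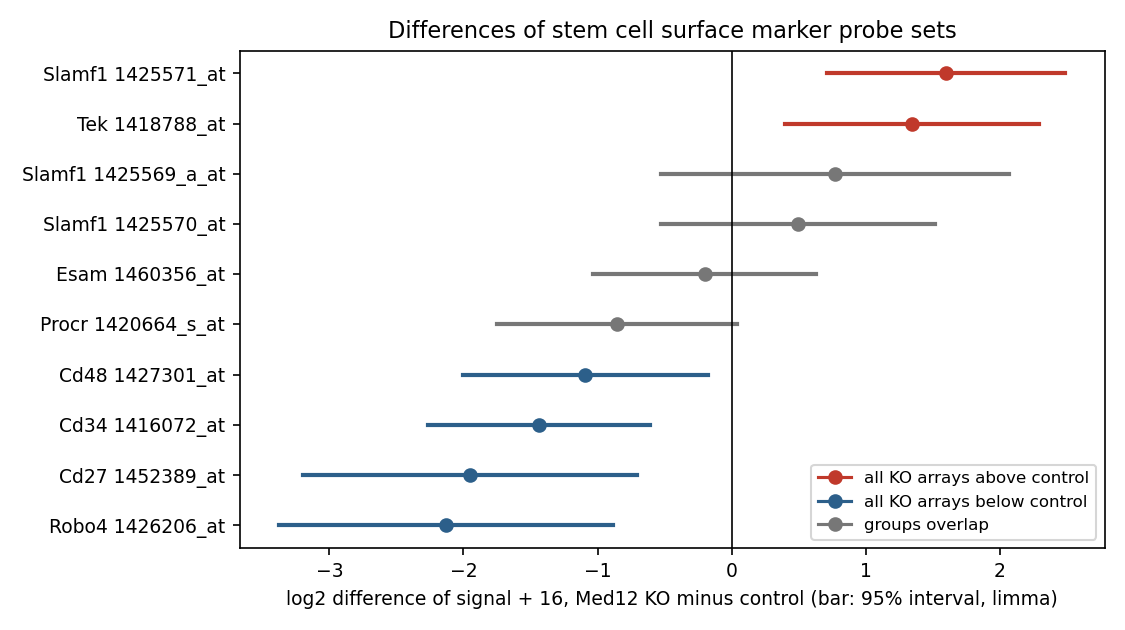
Log2 difference of signal + 16, Med12 KO minus control (horizontal axis), for each of the 10 probe sets, with limma's 95% interval as a bar. The values run from -2.13 for Robo4 to 1.60 for Slamf1 1425571_at, and the intervals of Procr, Esam and the other 2 Slamf1 probe sets include 0.

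Several of the genes around Slamf1 and Cd48 are members of the same family, and the differences of these relatives had both signs. Slamf1 and Cd48 lie on chromosome 1 with Cd244a, Ly9 and Slamf7 on one side and Cd84 and Slamf6 on the other, in the RefSeq gene order of GRCm38.p6. Of the 10 measured genes on a list of the remaining SLAM family and its adaptors, 1 fell, 0 rose and 9 did not pass, and the median log2 difference was -0.38, against -0.05 over all genes. Among all genes, 0.989% passed limma's test in either direction. The call was Ly9, a SLAM receptor of lymphocytes, with signals of 29.9, 51.6 and 27.2 in Med12 KO and 122.9, 115.7 and 128.4 in control. It fell by 1.43 on the log2 scale (SE 0.20, limma adjusted p 0.0496), and the call was lost without any 1 of the 6 arrays (adjusted p 0.0967 to 0.151) and after 6 of the other 10 alternatives.

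Cd244a, the gene of the CD48 receptor CD244, had signals of 236.3, 245.4 and 149.6 in Med12 KO and 475.2, 442.7 and 326.8 in control on its brighter probe set. The groups did not overlap (log2 difference -0.94, SE 0.24, limma adjusted p 0.151). Cd2, a related adhesion receptor that also binds CD48 in mice, was at -0.55 (adjusted p 0.205) at signals of 37.6 or less. The signalling adaptor Sh2d1a was under 16 on all arrays. Cd84, a SLAM receptor that binds itself and was named after its values were seen, gave 340.4, 399.2 and 534.3 in Med12 KO and 276.2, 284.9 and 276.2 in control. The log2 difference was 0.55 (SE 0.18, limma adjusted p 0.234), the sign of Slamf1 and the opposite of Cd48. Slamf6 (-1.15, adjusted p 0.324) and Slamf7 (-0.78, adjusted p 0.544), named after their values were seen, had overlapping groups and signals of 75.3 or less.

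Cd34 encodes a sialomucin of progenitors and endothelium that serves in adhesion and binds selectins when suitably glycosylated. It had signals of 1077, 960.9 and 447.5 on Med12 KO arrays, against 2029, 2063 and 2278 on control arrays. The groups were far apart, and Med12 KO replicate 3 was the lowest. The means were 829 ± 335 in Med12 KO and 2123 ± 135 in control (SD, n = 3 each). The log2 difference was -1.43 (SE 0.34, 95% interval -2.26 to -0.61), which missed the threshold in limma (adjusted p 0.132). Without Med12 KO replicate 3 it was -1.05 (adjusted p 0.133). In bulk samples such as these, fewer cells of a type and less RNA per cell cannot be told apart.

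Of 6 measured genes on the list of CD34 relatives and selectin partners, 0 passed limma's test. An unadjusted p under 0.05 was found for 2 of them, against 18.2% of all genes. The related sialomucin gene Podxl had signals of 196.7, 202.6 and 142.7 in Med12 KO and 58.8, 86.5 and 3.4 in control. Its groups were separate in the direction opposite to Cd34 (log2 difference 1.88, SE 0.62, limma adjusted p 0.235). Selplg, the gene of the main selectin ligand of leukocytes, was at -0.69 (adjusted p 0.150).

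Procr encodes the endothelial protein C receptor, which holds protein C at the cell surface for activation by thrombin bound to thrombomodulin. Its signals were 148.4, 151.3 and 87.7 on Med12 KO arrays, against 149.7, 379.0 and 242.6 on control arrays. Control replicate 1 lay within the Med12 KO range, so the groups overlapped at a single array. The log2 difference was -0.86 (SE 0.36, 95% interval -1.75 to 0.04, limma adjusted p 0.337) and was -0.55 without control replicate 2. The suffix _s_at of its probe set marks probes that may match more than a single transcript.

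Of the 8 measured genes of the protein C list, 0 passed on the brightest probe set. Limma gave 2 an unadjusted p under 0.05, against 18.2% of all genes. Both had higher signal in Med12 KO, as did 1426 of 18193 genes at that p. F2r encodes the thrombin receptor PAR1, which activated protein C cleaves when it is bound to EPCR. Its brighter probe set gave 1839, 2099 and 1955 in Med12 KO and 1263, 1214 and 1292 in control (log2 difference 0.64, SE 0.12, limma adjusted p 0.0855). Its dimmer probe set passed, with 1123, 1060 and 1032 in Med12 KO and 582.7, 597.7 and 571.1 in control (log2 difference 0.86, SE 0.11, limma adjusted p 0.0430). Both F2r probe sets kept the groups apart, and the dimmer one's call was lost without any 1 of the 6 arrays (adjusted p 0.104 to 0.142) and after 6 of the other 10 alternatives. Both also carry the suffix _s_at, as that of Procr does. The sphingosine receptor gene S1pr1 gave 84.7, 85.6 and 60.8 in Med12 KO and 16.2, 28.8 and 18.6 in control (log2 difference 1.33, SE 0.19, limma adjusted p 0.0545). Thbd, the thrombomodulin gene, was at -0.76 with overlapping groups (adjusted p 0.456).

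Esam encodes an adhesion molecule of endothelial tight junctions that is also carried by stem cells. It had signals of 112.1, 138.0 and 98.9 on Med12 KO arrays, against 74.5, 166.4 and 192.6 on control arrays. The Med12 KO values all lay inside the control range. The log2 difference was -0.20 (SE 0.34), and the 95% interval of -1.03 to 0.63 includes changes of 2 times in the lower direction. Its sign turned after median centring (0.0727) and without control replicate 3 (0.03). Of 7 measured genes on the list of ESAM's junctional relatives, 0 passed. The junction scaffold gene Tjp1 came nearest, with means of 71.2 ± 34.3 in Med12 KO and 5.13 ± 3.70 in control (SD, n = 3 each; limma adjusted p 0.0595), and Jam2 was at 0.93 (adjusted p 0.259).

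Tek encodes TIE2, the receptor of angiopoietin-1, linked in mice to the quiescence of stem cells in their niche. It had signals of 220.8, 177.3 and 237.5 on Med12 KO arrays, against 43.4, 145.3 and 57.8 on control arrays. All Med12 KO arrays were above all control arrays, and control replicate 2 was the nearest to them. The means were 212 ± 31.1 in Med12 KO and 82.2 ± 55.1 in control (SD, n = 3 each), and the log2 difference of 1.35 (SE 0.39, 95% interval 0.40 to 2.29) missed the threshold in limma (adjusted p 0.185). Without control replicate 2 it was 1.77 (adjusted p 0.0757).

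The ligand gene Angpt1, which stem and progenitor cells themselves transcribe, had the opposite sign. Its brighter probe set gave 556.9, 715.1 and 429.8 in Med12 KO and 874.9, 1195 and 961.8 in control (log2 difference -0.83, SE 0.23, limma adjusted p 0.168). The dimmer probe set gave 349.6, 478.7 and 286.6 in Med12 KO and 815.6, 676.3 and 1125 in control (log2 difference -1.20, limma adjusted p 0.117). Both probe sets separated the groups. Tie1, the sister receptor of TIE2, overlapped (log2 difference -0.07, adjusted p 0.942), and its sign turned under 3 other scalings. The adaptor gene Dok2, whose protein docks on activated TIE2, was at 1.05 (adjusted p 0.186). Of the 9 measured genes of the list, 0 passed, and limma gave 3 an unadjusted p under 0.05, against 18.2% of all genes.

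Robo4 encodes the roundabout receptor of endothelium and stem cells, which has been tied in mice to the anchoring of stem cells in marrow. Its signals were 17.1, 55.1 and 1.4 on Med12 KO arrays, against 168.9, 123.4 and 117.4 on control arrays. All Med12 KO values were well below the lowest control value. The means were 24.5 ± 27.6 in Med12 KO and 137 ± 28.2 in control (SD, n = 3 each). The log2 difference of -2.13 (SE 0.51, 95% interval -3.37 to -0.89) was the most negative of the set and missed the threshold in limma (adjusted p 0.134). Med12 KO replicate 3 was under 16, so its size depends on the added constant: it was -2.88 with 4 added and -1.22 with 64 added.

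Robo4 and Esam lie on chromosome 9 with Robo3 and Msantd2 between them. Within each array, the log2 signal of Robo4 minus that of Esam was lower in Med12 KO than in control by a difference of -1.93, with SDs of 0.80 in Med12 KO and 0.90 in control (n = 3 each). The groups did not overlap (exact two-sided permutation p = 0.10, the smallest possible). Robo3, named after its values were seen, was at -0.94 with overlapping groups (limma adjusted p 0.370). Of the 11 measured genes of the roundabout and Slit list, 0 passed. Limma gave 3 an unadjusted p under 0.05, against 18.2% of all genes. All 3 had lower signal in Med12 KO, as did 1877 of 18193 genes at that p. Cxcr4, the chemokine receptor that retains stem cells in marrow, gave 1816, 1886 and 1288 in Med12 KO and 2664, 2941 and 4055 in control (log2 difference -0.94, SE 0.23, limma adjusted p 0.141). The ligand Slit1 was at -0.87 (adjusted p 0.190) and Unc5b, reported to bind ROBO4, at -0.31 (adjusted p 0.495), both at signals of 36.6 or less.

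**Figure D3:**
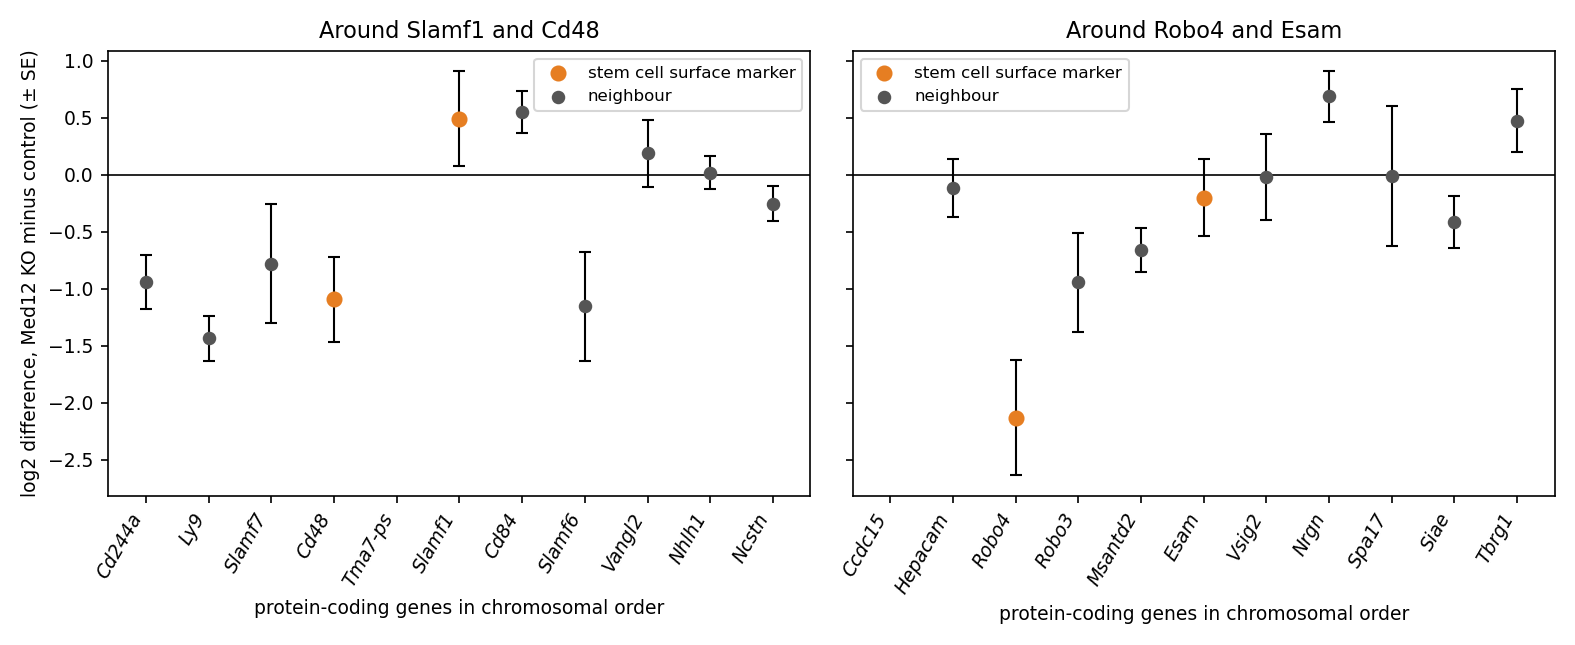
Log2 difference, Med12 KO minus control (vertical axis, bars ± SE), of the genes around Slamf1 and Cd48 (left) and around Robo4 and Esam (right), each by its brightest probe set, in chromosomal order. Orange points are the stem cell surface markers, grey points their neighbours, and genes without a point had no probe set with their single symbol; Slamf1 (0.49) and Cd84 (0.55) stand above 0 among SLAM genes that are below it.

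Up to 5 of the nearest genes that RefSeq annotates as protein-coding were looked up on either side of each surface marker; Cd34 has 3 on one side. For Cd34, Procr, Esam, Tek, Robo4 and Cd27, 0 of their 8 to 9 measured neighbours passed limma's test, and 1 to 4 had an unadjusted p under 0.05, where 0.989% and 18.2% of all genes did. For Slamf1 and Cd48 the only call was Ly9.

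Cd27 encodes a receptor of the TNF receptor family carried by multipotent and lymphoid progenitors and by lymphocytes. It had signals of 530.1, 479.0 and 134.3 on Med12 KO arrays, against 1147, 1424 and 1391 on control arrays. All Med12 KO values were well below the lowest control value, and Med12 KO replicate 3 was the lowest. The means were 381 ± 215 in Med12 KO and 1321 ± 152 in control (SD, n = 3 each). The log2 difference of -1.95 (SE 0.51, 95% interval -3.20 to -0.71) missed the threshold in limma (adjusted p 0.155), and it was -1.36 without Med12 KO replicate 3 (adjusted p 0.113).

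The CD27 ligand gene Cd70 was under 16 on 5 of 6 arrays. Of the 7 measured genes of the CD27 pathway, 0 passed, and with limma 0 had an unadjusted p under 0.05. Traf1 (-0.77, adjusted p 0.359) and Map3k14 (-0.51, adjusted p 0.372), which act downstream of TNF receptors, came nearest. Traf2, an adaptor that binds CD27, was at 0.41 (adjusted p 0.578).

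Lists bearing on the gate protein Sca1 were measured although Ly6a was not. Of 13 measured LY6 family genes, 0 passed limma's test and 1, Slurp1, had an unadjusted p under 0.05, while 7 were under 16 on all arrays. The interferon-stimulated genes are relevant because interferon raises Ly6a. Of 21 measured, 0 passed and 5 had an unadjusted p under 0.05, against 18.2% of all genes. Of these 5, 4 were higher in Med12 KO and 1, Mx1, was lower. The log2 differences of the 21 genes were above 0 for 15 and below 0 for 6. Their median was 0.44, against -0.05 over all genes. Their summed signal was 3841 to 6118 in Med12 KO and 3438 to 3495 in control. Usp18 had the lowest p, with means of 274 ± 34.9 in Med12 KO and 119 ± 30.3 in control (SD, n = 3 each; log2 difference 1.12, limma adjusted p 0.0905). The 21 measured genes that build the GPI anchor, which holds Sca1 and CD48 at the membrane, had a median of 0.04 and 0 calls, and 3 had an unadjusted p under 0.05.

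Other surface proteins of stem cells and multipotent progenitors were measured beside the set. Of 35, Il7r fell, Itga2b rose and 33 did not pass, where 0.638% of all genes fell and 0.352% rose. Limma gave 19 an unadjusted p under 0.05, against 18.2% of all genes. The median log2 difference was -0.31. Il7r, the interleukin-7 receptor of lymphoid progenitors, gave 22.6, 0.4 and 0.5 in Med12 KO and 311.3, 406.9 and 209.3 in control (log2 difference -3.85, limma adjusted p 0.0314). Itga2b, the integrin of megakaryocytes and early progenitors, gave 896.9, 1024 and 1251 in Med12 KO and 276.7, 360.4 and 407.4 in control (log2 difference 1.56, limma adjusted p 0.0431). Both calls were lost without any 1 of the 6 arrays (adjusted p 0.0764 to 0.121 for Il7r and 0.0930 to 0.146 for Itga2b), and after 1 of the other 10 alternatives for Il7r and 5 for Itga2b. Flt3, the receptor that marks lymphoid-primed progenitors, gave 125.9, 42.5 and 13.8 in Med12 KO and 657.1, 1028 and 1088 in control (log2 difference -3.87, limma adjusted p 0.0573). Like Cd34, Cd27 and Robo4, its lowest value was on Med12 KO replicate 3.

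Markers of the committed progenitors that the gate could hold moved at the same time. Among all genes, 0.638% fell and 0.352% rose. Of 11 lymphoid progenitor genes, 6 fell, 0 rose and 5 did not pass, with a median log2 difference of -1.95 and a summed signal of 589 to 1598 in Med12 KO and 5143 to 7817 in control. Of 11 granulocyte-monocyte progenitor genes, 7 fell, 0 rose and 4 did not pass, with a median of -3.46 and a summed signal of 979 to 2073 in Med12 KO and 9904 to 18262 in control. These lists and those that follow were chosen with earlier results of these data known. Of 10 erythroid genes, 7 rose and 3 did not pass, with a median of 1.91 and a summed signal of 8217 to 12642 in Med12 KO and 3455 to 4151 in control. Of 10 megakaryocyte genes, Itga2b rose and 9 did not pass (median 0.47), and of 8 mast cell genes Cma1 rose and 7 did not pass (median 0.66). With 1 array left out in turn, 0 or 1 gene was called on each of the lymphoid and granulocyte-monocyte lists and 0 on the erythroid, megakaryocyte and mast cell lists. With the replicate number as a block, these lymphoid, granulocyte-monocyte and erythroid counts were all 0. The erythroid count was 3 with 4 added to the signal, 2 with 64 added and 3 after cyclic loess normalization. The part of these shifts in the differences of Cd34, Cd27, Cd48, Slamf1 and Tek was not tested.

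Markers of vessel, marrow stroma and mature lymphocytes ranged from the floor to well-measured signals. Over all genes, limma gave 18.2% an unadjusted p under 0.05. The endothelial list, which holds none of the 9 surface markers, had a median log2 difference of -0.13, with 0 of 18 genes called and 3 with an unadjusted p under 0.05. Its summed signal was 1034 to 1192 in Med12 KO and 1637 to 1720 in control. Of the 18 genes, 4 (Cdh5, Sox17, Sox18 and Lyve1) were under 16 on all arrays, 9 on some, and 5 (Pecam1, Egfl7, Vwf, Emcn and Tie1) on none. Egfl7 had signals of 373.0, 515.9 and 357.9 in Med12 KO and 783.4, 634.9 and 503.7 in control. Vwf ranged from 105.2 to 272.8 in Med12 KO and from 84.7 to 261.1 in control, and Emcn from 30.1 to 103.2 in Med12 KO and from 100.9 to 223.6 in control. Pecam1, Emcn and Tie1 are also on the list of stem cell and progenitor surface proteins, and Vwf is on the megakaryocyte list. Their signals are therefore not particular to vessel cells. Pecam1, which blood cells also transcribe, had signals of 223.6, 116.4 and 214.7 in Med12 KO and 416.5, 418.6 and 498.6 in control (log2 difference -1.24, limma adjusted p 0.105), and Plvap was at 1.59 (adjusted p 0.218). Of 10 stromal genes, 0 passed limma's test and 2 had an unadjusted p under 0.05; 3 were under 16 on all arrays, 5 on some and 2 on none. The brightest, Pdgfrb, ranged from 347.2 to 741.1 in Med12 KO and from 610.0 to 1113 in control. Of 11 genes of mature T, NK and B cells, 0 passed and 2 had an unadjusted p under 0.05. Of these, 3 (Cd3g, Ms4a1 and Ncr1) were under 16 on all arrays, 6 on some, and 2 (Nkg7 and Cd79b) on none. Nkg7 ranged from 995.3 to 1342 in Med12 KO and from 917.9 to 1110 in control, and Cd79b from 75.2 to 311.4 in Med12 KO and from 207.6 to 304.0 in control. The 2 genes with an unadjusted p under 0.05 were both wholly lower in Med12 KO. Gzma gave 43, 45.3 and 7.3 in Med12 KO and 87.4, 164.4 and 135.1 in control (log2 difference -1.69, limma adjusted p 0.152). Cd79a gave 15.8, 11 and 1.1 in Med12 KO and 19.8, 101.9 and 56.5 in control (log2 difference -1.46, limma adjusted p 0.226). Tie1 was named as a partner of TIE2, whatever its values. Pecam1, Plvap, Egfl7, Pdgfrb, Gzma and Cd79a were named for having the lowest p on their lists in these data. The other genes named from these lists were picked once their values were known. The part of endothelial, stromal and mature cells in the differences of Robo4 and Tek was not tested.

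**Figure D4:**
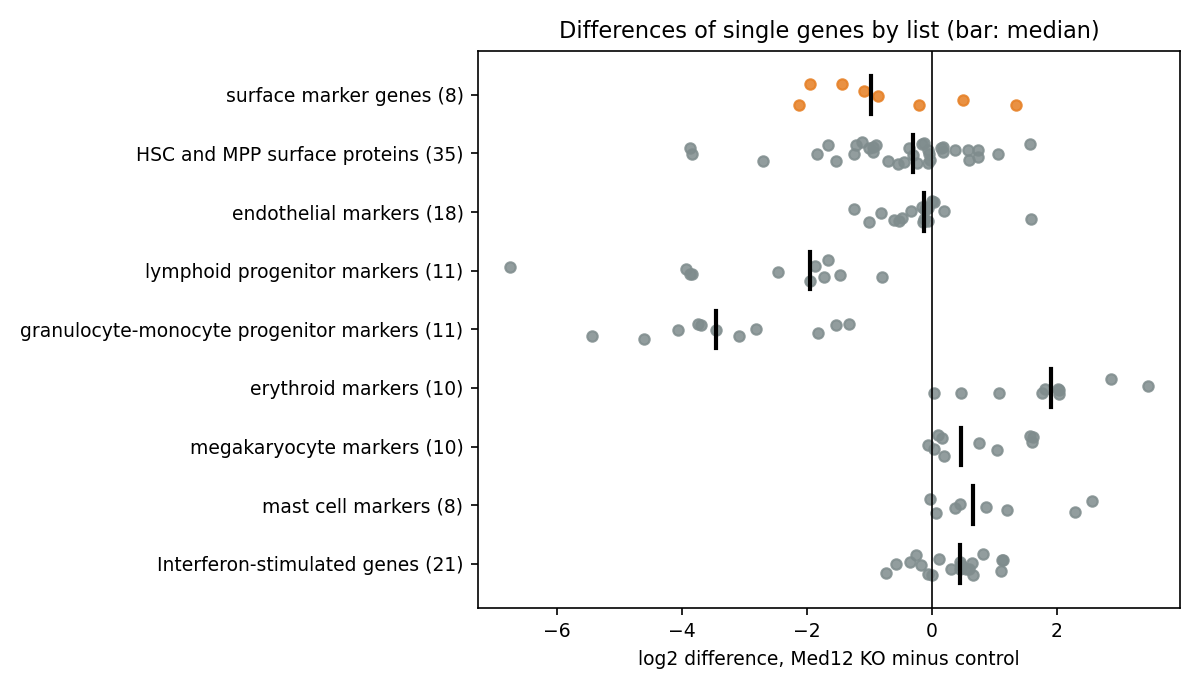
Log2 difference, Med12 KO minus control (horizontal axis), of single genes in the stem cell surface marker set (orange, top) and in other lists (grey), each gene by its brightest probe set, with the median as a black bar and the number of genes in parentheses. The 8 surface markers spread on both sides of 0 (median -0.97), while all 11 lymphoid and all 11 granulocyte-monocyte progenitor genes lie below 0 and all 10 erythroid genes above it.

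Among transcription factors of stem and megakaryocyte-erythroid cells, 1 of 14 fell, 0 rose and 13 did not pass, where 0.638% of all genes fell and 0.352% rose. Limma gave 8 of the 14 an unadjusted p under 0.05, 3 higher and 5 lower in Med12 KO, against 18.2% of all genes. Hlf, a factor of stem cells, fell by 2.17 on the log2 scale (limma adjusted p 0.0479), with means of 126 ± 21.9 in Med12 KO and 645 ± 252 in control (SD, n = 3 each). Its call was lost without any 1 of the 6 arrays (adjusted p 0.0727 to 0.146) and after 4 of the other 10 alternatives. Gfi1b was higher in Med12 KO (log2 difference 0.76, limma adjusted p 0.108) and Erg lower (log2 difference -1.09, limma adjusted p 0.129). The groups did not overlap for either.

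Profiles across the 6 arrays were compared by the root mean square difference of gene-centred log2 values, for the 4 surface markers of lowest unadjusted p. The gene closest to Cd34 was Rbpms, at 0.115, with signals of 266.9, 232.4 and 87.1 in Med12 KO and 445.0, 564.7 and 539.4 in control, and the next was Plxnd1, at 0.124. For Cd27 they were Ctss, at 0.140, with 349.9, 333.6 and 95 in Med12 KO and 1037, 1145 and 1052 in control, and Map4k4, at 0.176. Those profiles share the low value on Med12 KO replicate 3. For Robo4 they were Kank2 (0.222) and Bcr (0.275), and for Slamf1 1425571_at they were Gucy1b1 (0.239) and the platelet glycoprotein gene Gp1bb (0.293). Gp1bb had signals of 450.9, 943.2 and 694.6 in Med12 KO and 162.3, 253.6 and 217.0 in control. Likeness over 6 arrays in 2 groups is a description of these arrays.

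The direction of the surface marker differences held across the alternative settings except for Esam. Of 160 values over 16 alternatives, 158 kept their sign and stayed on the same side of the threshold, and the 2 that turned were of Esam. The changed prior, the replicate block and the filters on dim probe sets leave the log2 difference as it was. The signs in those settings were therefore fixed in advance. The lowest adjusted p of any surface marker was 0.0534, for Robo4 without the dimmer 50% of probe sets. In that setting the adjusted p values were 0.0564 for Slamf1 1425571_at, 0.0663 for Cd34 and 0.0681 for Cd27.

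**Figure D5:**
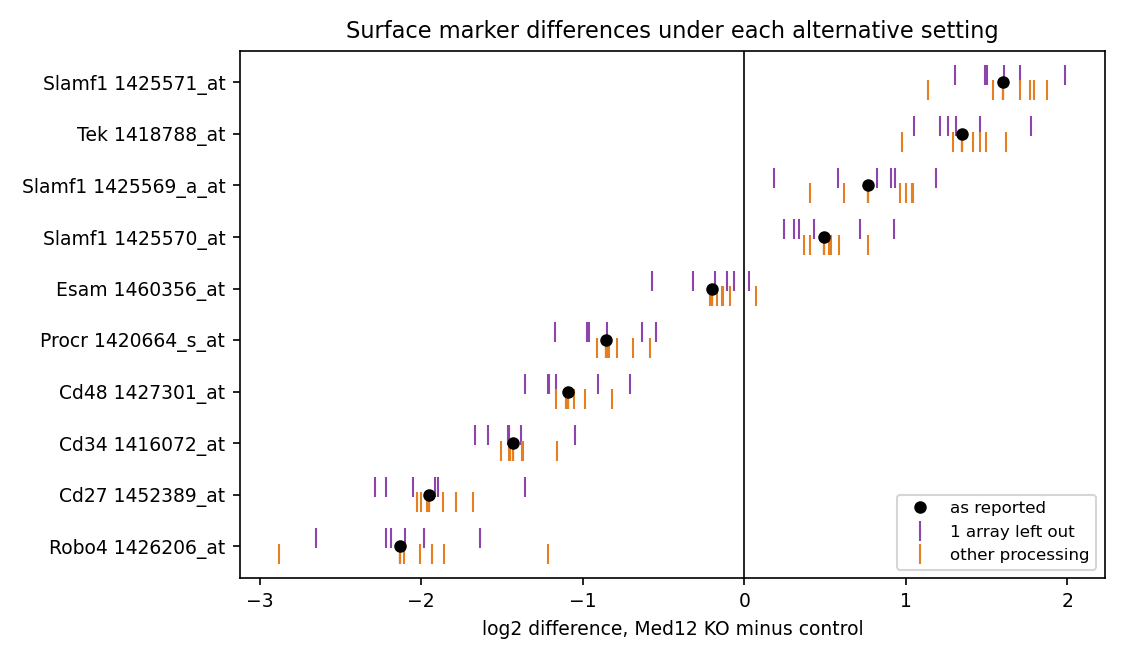
Log2 difference, Med12 KO minus control (horizontal axis), of each of the 10 probe sets as reported (black), with 1 array left out in turn (purple ticks) and under other processing (orange ticks). Esam is the probe set whose ticks fall on both sides of 0; Robo4 has the widest spread, from -2.88 to -1.22.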

How the data were processed

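The authors deposited 1 signal intensity per probe set and array on a linear scale; RMA is named, with no version given, per the submitters' processing notes, yet the values include zeros and have a mean of 150.0 on every array once 2% are left out at each end, so the method behind them is not known here. RNA was amplified with the Ovation V2 kit before biotin labelling, per the labels' protocols. All 6 value columns were used.

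After leaving out 64 control probe sets, log2(signal + 16) of 45037 probe sets was compared between 3 Med12 KO and 3 control arrays with limma 3.58.1 (lmFit and eBayes, two-sided) in R 4.3.3, with 4 residual and 1.96 prior degrees of freedom and Benjamini-Hochberg adjustment over all probe sets at 0.05. Alternatives were other offsets, normalizations, filters and priors, array weights, a replicate block and leaving out each array. The number of arrays limits the precision. Means and SDs are of linear signals. The platform annotation gave 34945 probe sets 1 symbol, 932 several and 9160 none; a gene was represented by its single-symbol probe set of highest mean signal. Of 289 entries on 21 lists, 257 matched. Members, lists and settings were chosen with earlier results of these data known. Named outside the set were direct partners, up to 3 genes of lowest p per list, called neighbours and the 2 closest profiles, besides genes stated as chosen afterwards. Promoters came from RefSeq (GRCm38.p6). Deviations of same-numbered arrays from their group means correlated at 0.0019 to 0.0192. They gave no sign of pairing by replicate number, which so few arrays cannot exclude. The fit was tested on simulated data.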

Additional observations from a re-analysis of the deposited data

How the results depend on the processing

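The 10 surface marker probe sets gave 0 calls under all 16 alternatives, while the count over all probe sets was 343 as reported, 693 after median centring (62.2% of them higher in Med12 KO, against 43% after quantile normalization and 28.9% as reported), 712 and 763 without the dimmest 25% and 50%, and 0 to 10 with 1 array left out. With the replicate number as a block (replicate block) limma called 0 probe sets (6752 had an unadjusted p under 0.05, against 7067 as reported), and no surface marker's call changed. Same-numbered arrays did not deviate together, but the labels do not say whether arrays were paired. Whether the block belongs in the model is therefore not known here. Esam turned to 0.0727 after median centring, and with 1 array left out ranged from -0.57 to 0.032. Among 75 other probe sets named or tested beside the set, 10 of 1182 values turned, 135 lost a call and 25 gained one. The calls gained were those of S1pr1 and Tjp1 (5 settings each), Flt3 and Gp1bb (4 each) and Med12 (3). The brighter F2r probe set gained a call in 2 settings, and Usp18 and Gfi1b in 1 each. With 1 array left out, 0 calls were gained. The changed prior, the block and the filters could not turn a sign. The values that turned were those of Tie1 (0.204 with median centring, 0.141 with quantile scaling, 0.0799 with cyclic loess, and -0.31 to 0.10 with 1 array left out), Cd70 (0.148, 0.0614 and 0.0429 in the same order, and -0.27 to 0.0014) and Sh2d1a (-0.0026 to 0.17 with 1 array left out). The cause was not tested. The within-array difference of Slamf1 and Cd48 ranged from 0.95 to 2.69 and that of Robo4 and Esam from -2.67 to -1.05, with no change of sign; averaging probe sets could not alter the second, since each gene has 1. Centring arrays on their medians moved the median over all probe sets from -0.07 to 0.20. Dim probe sets, Robo4 in Med12 KO among them, are limited by signal near the added constant of 16.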
